A study of Cucumis sativus with 6 samples.

Results

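Cinnamate 4-hydroxylase genes were examined in cucumber (Cucumis sativus) fruits of the inbred line YB. Of the 21317 genes in the deposited expression table, 6 made up the set, chosen by product name and position. They were 5 neighbours on chromosome 2 (Csa2G068700, Csa2G069200, Csa2G069700, Csa2G070200 and Csa2G070210) and Csa6G133710, which lay alone on chromosome 6. Peel and flesh were cut apart for RNA sequencing 3, 6 and 9 days after self-pollination, in 6 libraries, 1 per tissue and day, each made from 3 mixed fruits. All libraries came from the same inbred line, and the study's title names astringency of the fruit as its subject.

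Cinnamate 4-hydroxylase is a cytochrome P450 enzyme of the endoplasmic reticulum. It adds a hydroxyl group to cinnamate, the product of phenylalanine ammonia-lyase (PAL), and so makes p-coumarate, which 4-coumarate-CoA ligase then activates. Flavonoids, condensed tannins and lignin are all built from that activated acid. The enzyme draws its electrons from NADPH-cytochrome P450 reductase.

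The libraries held between 14899922 and 23740219 reads assigned to genes. Along the leading principal component of log2(FPKM + 1) the peel library of day 9 lay at 124 and the other libraries between -79.6 and 36.6, so this library stood apart. FPKM, the unit of the table, is the number of sequenced fragments per kilobase of model, after the authors' scaling of each library. As a check of the dissection, 16 cuticle and epidermis genes by product name summed to between 266 and 537 FPKM in peel and between 90.2 and 166 in flesh, with 0 of the 16 at 0 in every library. Their sum was highest in peel at day 9, and its part in the results for the hydroxylase genes was not tested. The 36 vascular and phloem genes summed to between 8877 and 14706 FPKM in peel and between 1550 and 18193 in flesh, with 0 at 0 in every library. This list was lowest in flesh at day 3 and highest in flesh at day 9, and its part was also not tested. The 45 photosynthesis genes, with 0 at 0 in every library, summed to 3174, 2009 and 1193 FPKM in peel at days 3, 6 and 9 and to 3094, 2954 and 2142 in flesh. The 55 seed and ovule genes, 1 of them at 0 in every library, summed to 2408, 1954 and 5388 FPKM in peel and to 1911, 1622 and 4180 in flesh. The seed list was thus highest at day 9 in both tissues and the photosynthesis list lowest, and their part was not tested either. In such bulk samples, fewer cells of a type and less RNA per cell cannot be told apart.

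The 5 neighbours ran from 5323108 to 5341747 on chromosome 2, with gaps of between 654 and 4988 bases from one to the next. Csa6G133710 ran from 9195331 to 9198188 on chromosome 6. These are the positions of the deposited table, and the sources used here name no genome build. The loci differed in size: Csa2G068700 spanned 2718 bases and Csa6G133710 2858 bases, while Csa2G069200 spanned 1529, Csa2G070210 1224, Csa2G069700 730 and Csa2G070200 570. The ratio of deposited scaled count to FPKM depends on the length of the gene model. Relative to Csa6G133710 it was 1.26 for Csa2G068700, 0.600 for Csa2G070210, 0.352 for Csa2G069200, 0.219 for Csa2G069700 and 0.217 for Csa2G070200. The other 4 neighbours had models shorter than Csa6G133710, and whether each is a whole gene was not tested. None of the 6 loci overlapped another gene of the table. How the authors' counting divided reads between similar copies is not given, so the split among the neighbours is uncertain.

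**Figure D1:**
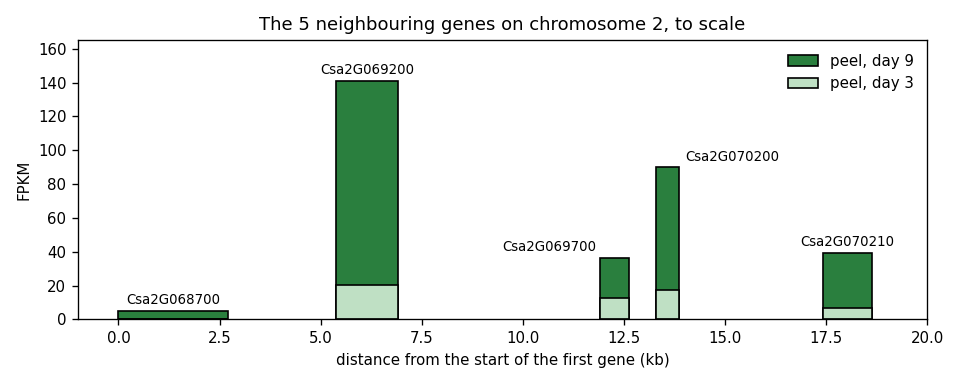
Map of the 5 neighbouring cinnamate 4-hydroxylase genes on chromosome 2, drawn to scale. The horizontal axis is the distance in kb from the start of the first gene and the height of each box is its FPKM in peel at day 9 (dark green) and at day 3 (light green), 1 library each. Csa2G069200 was the highest at day 9, at 141 FPKM, and the long locus Csa2G068700 the lowest, at 4.85 FPKM.

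All 6 genes had their highest level in peel at day 9. Csa2G069200, the neighbour with the highest mean, had at days 3, 6 and 9 peel levels of 20.4, 29.2 and 141 FPKM and flesh levels of 7.51, 0.501 and 1.03. Its flesh values at days 6 and 9 rested on 6 and 9 reads. Every peel library lay above every flesh library for this gene, and the flesh libraries of days 6 and 9 did not differ beyond counting error (ratio 2.01, 95% interval 0.640 to 6.87).

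Csa2G070200 had peel levels of 17.3, 18.0 and 89.9 FPKM and flesh levels of 5.73, 0.254 and 0.541, the last values from 2 and 3 reads. Csa2G070210 had peel levels of 6.61, 6.47 and 39.6 FPKM and flesh levels of 1.08, 0.148 and 0.0649, with 24, 3 and 1 reads behind the flesh values. In both genes the tissues did not overlap, and the peel levels of days 3 and 6 were indistinguishable within counting error. The ratio of day 6 to day 3 in peel was 1.01 for Csa2G070200 (95% interval 0.771 to 1.33) and 0.994 for Csa2G070210 (0.765 to 1.29). These ratios are of deposited scaled counts, and their exact conditional binomial intervals cover counting error only, not the spread between fruits.

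Csa2G069700 departed from its neighbours at day 6. It had peel levels of 12.5, 5.15 and 36.4 FPKM and flesh levels of 7.83, 0 and 0, so the peel library of day 6 lay below the flesh library of day 3 and the tissues overlapped. The zeros stand for 0 reads, which allows up to 3 reads in each library. In peel it was 2.40-fold lower at day 6 than at day 3 (interval 1.59 to 3.70), where Csa2G069200 was 1.44-fold higher (1.21 to 1.71). With the flesh libraries set to a floor of 3 reads, its scaled count in peel was 13.7-fold higher than in flesh at day 6 and 60.9-fold higher at day 9. These ratios take the 33 and 136 peel reads as exact, so they leave out counting error in peel and are not lower limits.

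Csa2G068700, the first neighbour, was the lowest of the set. It had peel levels of 0.436, 0.445 and 4.85 FPKM and flesh levels of 0.330, 0.234 and 0.246, from 17, 16 and 118 reads in peel and 15, 10 and 8 in flesh. In order of level, no neighbouring pair among its 5 lowest libraries differed beyond counting error, and only the peel library of day 9 stood clear. Its mean of 1.09 FPKM passed the filter of 1 FPKM through that library.

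Csa6G133710 followed another course. It had peel levels of 17.4, 19.3 and 164 FPKM and flesh levels of 43.4, 33.2 and 14.0, each from at least 361 reads. Flesh lay above peel at days 3 and 6 and below it at day 9, so the tissues overlapped. From lowest to highest the libraries ran flesh day 9, peel day 3, peel day 6, flesh day 6, flesh day 3 and peel day 9. Of the neighbours in this order, peel at day 3 and peel at day 6 did not differ beyond counting error (ratio 1.09, interval 0.969 to 1.23).

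**Figure D2:**
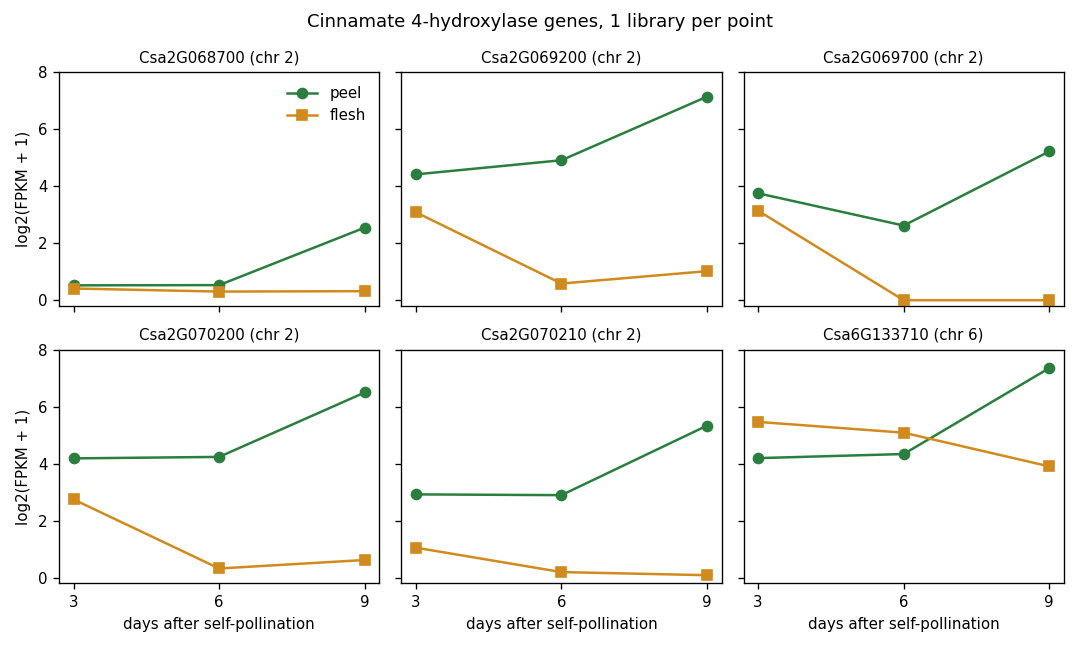
Level of each cinnamate 4-hydroxylase gene, as log2(FPKM + 1), against days after self-pollination, in peel (green circles) and flesh (orange squares); each point is 1 library, with no error bar because no tissue and day was repeated. In Csa2G069200, Csa2G070200 and Csa2G070210 every peel point lies above every flesh point, while the lines of Csa6G133710 cross between days 6 and 9.

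Peel and flesh were first compared over all days. On average over the days, the 4 abundant neighbours had log2 differences of 2.82 to 3.93 toward peel, Csa2G068700 had 0.86 and Csa6G133710 had 0.48. In limma 0 of the 6 genes passed at an adjusted p under 0.05, and 0.261% of the 17265 genes tested passed. At an unadjusted p under 0.05, 4 of the 6 were higher in peel, against 13% of all genes. Every peel library lay above every flesh library in 3 of the 5 genes other than Csa2G068700, against 11.8% of all genes. Csa2G068700 is left out of such counts because it passed the filter through the library in which it was high. Its own separation rested on 17 reads in peel and 15 in flesh at day 3 (ratio 1.34, interval 0.630 to 2.88).

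The limma estimate was 3.27 ± 0.71 (SE) for Csa2G070210, with an adjusted p of 0.101, the smallest of the set. It was 3.93 ± 0.95 for Csa2G069200 (limma, adjusted p = 0.116), 3.75 ± 0.88 for Csa2G070200 (adjusted p = 0.111) and 2.82 ± 0.92 for Csa2G069700 (adjusted p = 0.165). For Csa6G133710 it was 0.48 ± 1.02 (limma, adjusted p = 0.794). In these tests a gap between the tissues that changes with the day counts as error. Without Csa2G068700 the median over the genes was 3.27, beside -0.03 over all genes tested. On reads recovered from the scaled counts, edgeR called 0 of the 6 (1.45% of all genes), with 3 higher at an unadjusted p under 0.05 (13% of all genes). DESeq2 called 4 of the 6, all of them neighbours on chromosome 2 and higher in peel, where it called 10.1% of all genes higher. Without the day 9 peel library the limma estimates of the 4 abundant neighbours were between 1.62 and 2.83, that of Csa2G068700 was 0.17 and that of Csa6G133710 was -1.01.

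Within single days, which have 1 library a tissue and no test, the gap between peel and flesh differed from day to day. A gap counted as at least 4-fold when it reached 2 units on the log2(FPKM + 1) scale. At day 3, the count of hydroxylase genes that were 4-fold or more higher in peel was 0 of 6, against 2.66% of all genes, and at day 6 the 4 abundant neighbours were, against 5.09%. At day 9 all 5 genes other than Csa2G068700 were, against 7.03%. Csa2G068700 had 2.23 at day 9, and 0.91 with a pseudocount of 5. Over those 5 genes the median gap went from 1.33 at day 3 through 2.70 to 5.25 at day 9, while that of all genes tested stayed between -0.06 and 0.00.

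In scaled counts Csa2G069200 was 2.70-fold higher in peel at day 3 (interval 2.13 to 3.45), 63.1-fold at day 6 (28.7 to 173) and 140-fold at day 9 (73.2 to 306). Csa6G133710 was instead higher in flesh, by 2.57-fold at day 3 (2.33 to 2.84) and 1.76-fold at day 6 (1.59 to 1.95). At day 9 it was 11.7-fold higher in peel (10.5 to 13.1). The change of its gap from day 3 to day 9, 4.72 log2 units, was close to that of Csa2G069200 (4.80), from a starting point 2.60 units lower. A change at least as large toward peel was found in 0.423% and 0.394% of all genes.

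**Figure D3:**
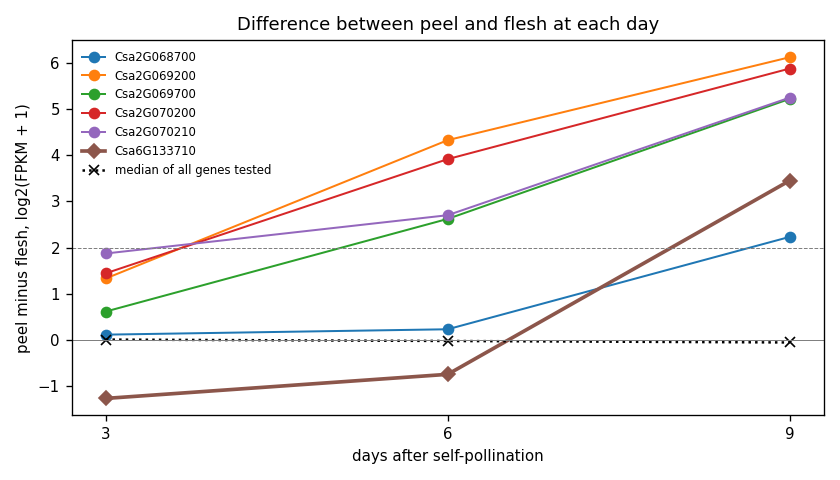
Difference between peel and flesh on the log2(FPKM + 1) scale at each day, for the 6 genes (lines) and for the median of all genes tested (dotted); each point sets 1 peel library against 1 flesh library. The dashed line marks 4-fold. All 6 genes lie above it at day 9, and Csa6G133710 starts at -1.27, the lowest.

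The days were then followed within each tissue. In peel, the number of the 6 genes that reached 4-fold was 0 from day 3 to day 6, against 0.753% of all genes. From day 6 to day 9 all 5 genes other than Csa2G068700 did, against 3.79%, and from day 3 to day 9 it was 4 of those 5, against 5.2%. Csa2G068700 had 2.02 and 2.03 log2 units over these spans, and 0.86 from day 3 to day 9 with a pseudocount of 5. Csa6G133710 was 8.51-fold higher in scaled counts at day 9 than at day 6 (interval 7.76 to 9.34), beside 4.45-fold (3.91 to 5.08) for Csa2G069200, 5.10-fold (4.11 to 6.38) for Csa2G070200, 5.79-fold (4.71 to 7.17) for Csa2G070210 and 5.98-fold (4.07 to 9.04) for Csa2G069700. Csa2G068700 had 10.7-fold (6.33 to 19.3) from 16 and 118 reads, an interval that overlapped those of the other genes except Csa2G069200. All of these ratios rest on the peel library of day 9, and its 3 mixed fruits have no second library.

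In flesh most of the genes were lower at day 6 than at day 3. At day 6, 3 of the 5 genes other than Csa2G068700 were at least 4-fold lower than at day 3, against 1.53% of all genes. They were Csa2G069200, Csa2G069700 and Csa2G070200. Csa2G068700, at 0.330 FPKM at day 3, and Csa2G070210, at 1.08, were too low to fall by 2 units on the log2(FPKM + 1) scale. Csa2G069200 was 16.3-fold lower in scaled counts (interval 7.22 to 45.3), and Csa2G070210 was 7.65-fold lower (2.32 to 39.7) from 24 and 3 reads. Csa6G133710 was 1.33-fold lower over the same interval (1.24 to 1.44) and 2.43-fold lower from day 6 to day 9 (2.16 to 2.74). From day 6 to day 9 the neighbours could not fall by 2 units on the log2(FPKM + 1) scale, since none was above 0.501 FPKM at day 6. Csa6G133710 could, and had -1.18 units over that step, where 0.979% of all genes were at least 4-fold lower. From day 3 to day 9 the same 3 neighbours were at least 4-fold lower, against 3.06% of all genes, and Csa2G068700 and Csa2G070210 again could not be. Csa2G068700 did not differ beyond counting error at either step in flesh, with ratios of 0.697 from day 3 to day 6 (interval 0.280 to 1.66) and 1.07 from day 6 to day 9 (0.368 to 3.02).

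The model of tissue by day asked whether the tissues had different slopes over the days. The slope in peel minus that in flesh was positive in all 6 genes, at 0.35 to 0.80 log2 units per day, and the largest values were 0.80 ± 0.22 (SE) for Csa2G069200 and 0.79 ± 0.20 for Csa6G133710. In limma 0 of the 6 passed (0% of all genes), with adjusted p between 0.418 and 0.679. At an unadjusted p under 0.05, 4 of the 6 had the more positive slope in peel, against 3.83% of all genes. edgeR called 0 (0% of all genes), and had all 5 genes other than Csa2G068700 in that direction at an unadjusted p under 0.05 (3.67%). A positive difference does not say which slope was the steeper: in Csa2G069700 the change from day 3 to day 9 was 1.47 log2 units in peel and -3.14 in flesh. DESeq2 called 4 of the 6 (1.18% of all genes in that direction), among them Csa6G133710 with an adjusted p of 0.00559 and not Csa2G070200, with 0.0545. Without the day 9 peel library, limma had 0 of the 6 at an unadjusted p under 0.05, and the slopes were between 0.02 and 0.51. For day 9 against day 3 averaged over the tissues, limma called 0 of the 6 (0% of all genes) and had 0 at an unadjusted p under 0.05 (24.9%). In that test edgeR called 0 of the 6 (0.145% of all genes) and DESeq2 0 (16.4%), and the average sets the higher peel values of day 9 against the lower flesh values.

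The neighbours as a locus and the single gene shared the transcripts differently between tissues. The summed FPKM of the 5 neighbours was 57.2, 59.2 and 312 in peel and 22.5, 1.14 and 1.88 in flesh. Csa6G133710 accounted for 23.3%, 24.6% and 34.4% of the FPKM of all 6 genes in peel at days 3, 6 and 9, and for 65.9%, 96.7% and 88.2% in flesh. Of the reads, which are not scaled to length, it held 48.2%, 48.3% and 60.9% in peel and 86.7%, 98.2% and 94.5% in flesh. In peel the sum of the neighbours was above the single gene, by 3.29-fold at day 3, 3.06-fold at day 6 and 1.91-fold at day 9. In flesh the single gene was above the sum, by 1.93-fold, 29.2-fold and 7.47-fold.

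The order within peel depended on how the neighbours were combined. A sum of FPKM counts each gene model in full, also where a model is short. With the reads of all 5 divided by their summed length, an alternative chosen after seeing the data, the neighbours were at 7.09, 7.73 and 39.4 FPKM in peel and below Csa6G133710 in every library. That measure is a mean over the genes weighted by length, not a total, so it is not like the sum. Its longest model is that of Csa2G068700, which held 0.762%, 0.752% and 1.56% of the summed FPKM in peel. With Csa2G069200 alone, the log2 ratio to Csa6G133710 in peel was 0.22, 0.57 and -0.21 at days 3, 6 and 9. In flesh the neighbours were below Csa6G133710 by each of these measures. Among the neighbours, Csa2G069200 held between 33.4% and 54.7% of the summed FPKM, and it led in every library other than flesh at day 3, where Csa2G069700 was at 34.8%.

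**Figure D4:**
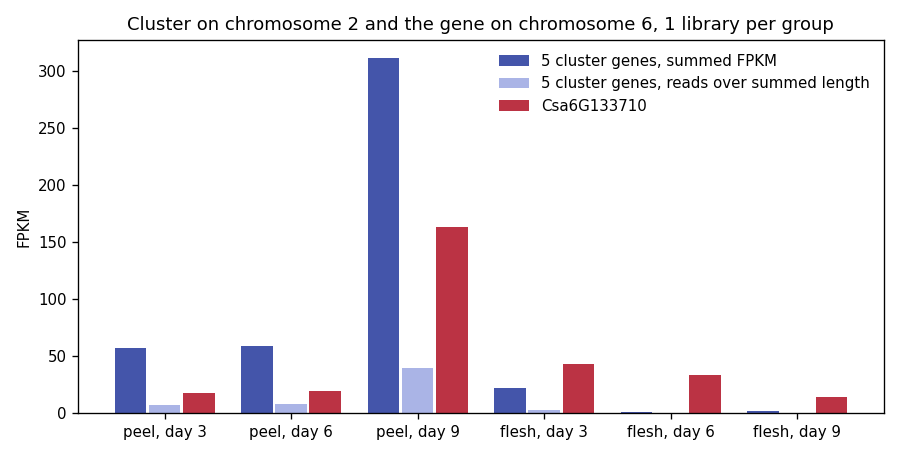
FPKM of the 5 genes of chromosome 2, as their sum (dark blue) and as their reads over their summed length (light blue), and of Csa6G133710 (red), in each library. The summed neighbours reached 312 FPKM in peel at day 9 and were under 2 FPKM in flesh at days 6 and 9, where Csa6G133710 was at 33.2 and 14.0.

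Over the 6 libraries, the neighbours resembled each other more than they resembled Csa6G133710. Pearson r of log2(FPKM + 1) was between 0.72 and 1.00 over the 10 pairs of neighbours. It was between 0.58 and 0.87 for the neighbours with Csa6G133710, and 0.56 for their sum. The lowest pairs of neighbours, from 0.72 to 0.85, all held Csa2G068700, which had its highest r (0.87) with Csa6G133710. These are descriptions over 6 points that share 3 days and 2 tissues.

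Genes just beside the 2 loci had other levels. Within 20 kb of the chromosome 2 group lay an RNA helicase gene (Csa2G068690), SAG102, named after senescence (Csa2G070220), and a WD-repeat gene (Csa2G070230). SAG102 had peel levels of 105, 69.4 and 93.0 FPKM and flesh levels of 72.3, 96.3 and 180, so it was higher in flesh at days 6 and 9. The helicase gene had peel levels of 20.3, 17.2 and 12.3 FPKM and flesh levels of 15.1, 7.03 and 9.60. The WD-repeat gene was lower in peel at each day, by at most 0.55 log2 units. Beside Csa6G133710, a glycerol uptake protein gene (Csa6G133700) and a proteasome subunit gene (Csa6G133730) had gaps of at most 0.26 and 0.34 log2 units between the tissues, and Csa6G133720, with no product name, was at 0 in every library.

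Genes of other steps were taken from 10 product names fixed for the pathway, which matched 78 genes, of which 65 passed the filter of 1 FPKM. In limma 0 of the 65 were called between peel and flesh, against 0.261% of all genes. At an unadjusted p under 0.05 there were 23 toward peel (13% of all genes) and 3 toward flesh. Of the 17265 genes tested, 4367 had such a limma p in either direction, 2237 of them toward peel. At least 4-fold higher in peel were 2 of the 65 at day 3, 19 at day 6 and 29 at day 9. At least 4-fold lower were 0, 1 and 1, for which no share of all genes is given. Over all genes 2.66%, 5.09% and 7.03% were at least 4-fold higher in peel at those days, so the count at day 3 was near the background. The median gaps of the 65 were 0.17, 0.58 and 1.51 log2 units. The r with the neighbours' sum was above that with Csa6G133710 for 44 of the 65, where it was for 49.4% of all genes tested.

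Upstream, r was higher with the neighbours' sum than with Csa6G133710 for 11 of the 16 PAL genes, against 49.4% of all genes tested. The most abundant, Csa4G008250, had peel levels of 114, 137 and 254 FPKM and flesh levels of 79.2, 4.84 and 18.8, with an r of 0.96 with the neighbours' sum and 0.39 with Csa6G133710. Csa6G445780, next in mean level, had peel levels of 48.7, 90.6 and 154 FPKM and flesh levels of 54.7, 4.63 and 17.8, with r of 0.94 and 0.43. Both PAL genes were low in flesh from day 6 on, as the neighbours were, and both were higher in peel at day 6 than at day 3.

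Among the 12 ligase genes of the next step that passed the filter, r was higher with the neighbours' sum than with Csa6G133710 for 8. Over all genes tested that share was 49.4%. Csa4G653450 had peel levels of 109, 69.6 and 141 FPKM and flesh levels of 71.3, 19.2 and 29.5 (r of 0.96 with the neighbours' sum and 0.45 with Csa6G133710). Csa1G050280 had peel levels of 17.9, 22.4 and 88.4 FPKM and flesh levels of 19.3, 24.7 and 15.7 (r of 0.64 and 0.92). The second ligase gene was near equal in both tissues at days 3 and 6 and higher in peel at day 9.

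The name of the electron donor was carried by 2 genes of the table, and their levels differed. The NADPH-cytochrome P450 reductase gene Csa1G423150 had peel levels of 146, 156 and 195 FPKM and flesh levels of 97.2, 30.7 and 51.3 (r of 0.97 with the neighbours' sum and 0.35 with Csa6G133710). Csa2G059720 had peel levels of 24.3, 39.2 and 66.7 FPKM and flesh levels of 35.8, 47.2 and 59.8 (r of -0.11 and 0.48). Csa1G423150 was higher in peel at each day, by 0.58, 2.31 and 1.90 log2 units (limma over the days 1.60 ± 0.38, SE, adjusted p = 0.114). Csa2G059720 was lower in peel at days 3 and 6 and higher by 0.16 at day 9.

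Genes named here for steps beyond the activated acid showed no common course. Hydroxycinnamoyl transfer, which builds esters and amides of these acids, had 14 genes above the filter. For 11 of them r was higher with the neighbours' sum than with Csa6G133710 (49.4% of all genes tested). N-hydroxycinnamoyl/benzoyltransferase 5 (Csa4G308490) had peel levels of 101, 66.8 and 136 FPKM and flesh levels of 27.9, 20.3 and 46.8 (limma 1.67 ± 0.16, SE, adjusted p = 0.0514), while Csa3G732470 was higher in flesh at each day. Chalcone synthase, which opens the flavonoid branch, had 2 genes above the filter, of 3 with the name. Csa3G600020 had peel levels of 46.8, 9.55 and 6.21 FPKM and flesh levels of 11.9, 5.28 and 0.420, so it was highest at day 3 in both tissues. Csa1G006310 had peel levels of 1.84, 2.53 and 2.32 FPKM and flesh levels of 1.78, 2.16 and 2.23, with gaps of at most 0.16 log2 units between the tissues.

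In the lignin branch, r was higher with the neighbours' sum than with Csa6G133710 for 10 of the 14 cinnamoyl-CoA reductase genes (49.4% of all genes tested). It was so for 1 of 3 O-methyltransferase genes and 0 of 2 cinnamyl alcohol dehydrogenase genes. The most abundant cinnamoyl-CoA reductase gene, Csa4G664500, had gaps of 0.34, 0.36 and 0.23 log2 units between peel and flesh, and Csa1G533570 had gaps of at most 0.13. Less abundant reductase genes differed more. At day 9, 5 of the 14 were at least 4-fold higher in peel (7.03% of all genes), and Csa1G277460 was lower in peel, at -2.35 log2 units. Of the caffeoyl-CoA O-methyltransferases, which methylate lignin precursors, Csa5G589940 had peel levels of 119, 32.9 and 44.3 FPKM and flesh levels of 51.8, 38.8 and 72.5. Csa7G073660 had peel levels of 19.6, 9.05 and 16.7 FPKM and flesh levels of 25.6, 32.4 and 11.1. Cinnamyl alcohol dehydrogenase, the last step to monolignols, had one gene higher in flesh at each day (Csa3G199580, -0.83 ± 0.17, SE, limma adjusted p = 0.0930). The other, Csa7G071700, had peel levels of 1.12, 1.63 and 26.6 FPKM and flesh levels of 0.815, 0.276 and 1.11. Coumarate 3-hydroxylase matched 0 product names, and the single ferulate 5-hydroxylase gene was below the filter.

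**Figure D5:**
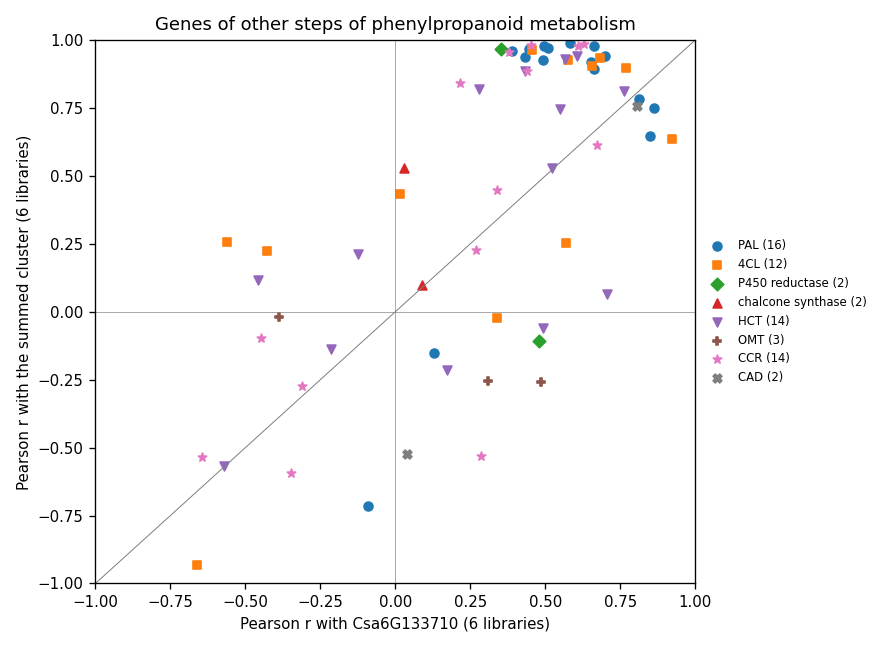
Pearson r over the 6 libraries of 65 genes of other steps with Csa6G133710 (horizontal axis) and with the summed neighbours on chromosome 2 (vertical axis); each point is 1 gene, marked by its step, with the number of genes in the legend (PAL, phenylalanine ammonia-lyase; 4CL, 4-coumarate-CoA ligase; HCT, hydroxycinnamoyl transfer; OMT, O-methyltransferase; CCR, cinnamoyl-CoA reductase; CAD, cinnamyl alcohol dehydrogenase). Above the diagonal, where 44 of the 65 lie, r was higher with the neighbours.

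Over all genes with a product name, a mean of at least 5 FPKM and a range of at least 2 log2 units (2966 genes, the 6 hydroxylases left out), likeness to the neighbours' sum was ranked. The 6 with the highest r, from 0.991 to 0.993, were Csa4G280650 (disease resistance response protein), Csa1G045690 (cytoplasmic dynein light chain 2), Csa3G743980 (UDP-glycosyltransferase 1), Csa1G009610 (an ABC transporter protein), Csa3G733880 (a serine/threonine-protein kinase) and Csa1G418240 (a 3-ketoacyl-CoA synthase, of a family that elongates fatty acids for waxes, and one of the cuticle genes above). Csa4G280650 had peel levels of 66.2, 41.4 and 239 FPKM and flesh levels of 27.2, 3.02 and 2.73.

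Those most like Csa6G133710 had r from 0.921 to 0.975. They were Csa7G006260 (kinesin-related protein), Csa4G443120 (4,5-DOPA dioxygenase extradiol-like protein), Csa6G505950 (chaperone protein dnaJ), Csa7G014460 (PEARLI 4 family), the ligase Csa1G050280 described above and Csa7G006270 (kinesin-like protein). Csa7G006260 had peel levels of 5.13, 4.54 and 35.6 FPKM and flesh levels of 11.3, 7.30 and 5.60, and like Csa6G133710 it was higher in flesh at days 3 and 6 and higher in peel at day 9. The ligase was the only gene of the pathway list in either group of 6.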

How the data were processed

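The labels give 6 libraries, from peel and flesh of line YB at days 3, 6 and 9, each from 3 mixed fruits. The submitters' processing notes name TopHat and Cufflinks 2.1.1; the sources used here do not give the build, the annotation or the use of strand. The deposited table holds FPKM per gene and library, and columns that the file headers call counts. Those deposited values were not whole and were treated as a scaled signal: the low values were multiples of 1 step per library (0.565 to 1.07), and dividing by it gave whole numbers for 99.8% to 100% of values (within 0.05).

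limma 3.58.1 (R 4.3.3) tested log2(FPKM + 1) of 17265 genes whose mean reached 1 FPKM. The terms were tissue and day (as a factor), or tissue by day as a number, each with 2 residual degrees of freedom, an intensity trend and Benjamini-Hochberg adjustment over all genes tested. A pseudocount of 1 understates the change of low genes. All tests were two-sided. edgeR 4.0.16 and DESeq2 1.42.0 ran on the recovered reads. The scripts were tested on simulated data. Intervals are exact conditional binomial (95%) and cover counting error only. Pathway genes named are up to 2 per step with the highest mean FPKM, and genes of like pattern the 6 with the highest r. The members, lists and tests were chosen with earlier results of these data known. With 1 library per tissue and day, p-values measure only the spread left by the model.

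As alternatives, the pseudocount was 0.1 or 5, the filter was dropped or set to 5 FPKM, and values were rescaled by upper quartile or quantiles. The trend or the day term was dropped, day entered as a number, and each library was left out. Another gene with the same product name, on an unplaced scaffold, was not in the set.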

Additional observations from a re-analysis of the deposited data

Results flagged for a closer look

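In 5 of the 6 genes the difference between day 9 and day 3 was positive in peel and negative in flesh, with counting intervals that excluded equality in both tissues. The peel minus flesh gap changed by 4.80 log2 units in Csa2G069200, 4.61 in Csa2G069700, 4.44 in Csa2G070200, 3.38 in Csa2G070210 and 4.72 in Csa6G133710. With 1 library per tissue and day this change itself has no replicate check. The related test of slopes gave limma adjusted p of 0.418 to 0.592 for these genes, and DESeq2 called 4 of them, not Csa2G070200.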

How the results depend on the processing

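Between peel and flesh, limma called 0 of the 6 genes under every alternative run with it, the fit without the day term (no replicate block) among them, and edgeR called 0. DESeq2 called 4, and 4 for the slopes. The fit with day as a factor sets each peel library against the flesh library of its day and is thus the paired analysis; without that block the count was also 0. Csa2G068700 was not tested with the filter of 5 FPKM. All 6 slopes otherwise kept their sign in every alternative run, as did the tissue difference, except that of Csa6G133710 with a library left out (-1.01 to 1.35). For day 9 against day 3 over both tissues the sign was not stable. With a library left out the values ran from -0.064 to 2.00 (Csa2G068700), -1.62 to 2.28 (Csa2G069200), -2.64 to 0.97 (Csa2G069700), -1.64 to 1.82 (Csa2G070200), -0.76 to 2.21 (Csa2G070210) and -1.43 to 3.03 (Csa6G133710). Csa2G070200 had -0.41 with a pseudocount of 0.1, -0.029 with upper-quartile rescaling, -0.33 in edgeR and -0.89 in DESeq2. Csa2G069200 had -0.30 in edgeR and -0.65 in DESeq2, and Csa2G070210 had -0.14 with a pseudocount of 0.1 and -0.20 in DESeq2. The cause was not tested.

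Some genes crossed the 4-fold mark with another pseudocount, which shrinks or widens the gaps of low values by construction. Between peel and flesh, Csa2G070210 had 2.51 log2 units at day 3 with 0.1, beside 1.87 with 1. With 5, Csa2G069700 and Csa2G070210 had 1.02 and 1.16 at day 6, beside 2.62 and 2.70 with 1. Csa2G068700 had 0.91 at day 9 with 5, beside 2.23. From day 3 to day 9 in peel, Csa2G068700 and Csa2G070210 had 0.86 and 1.94 with 5, beside 2.03 and 2.41. Upper-quartile rescaling gave 1.91 for Csa2G068700 over that span. In flesh, Csa2G069200, Csa2G069700 and Csa2G070200 had -1.05, -1.36 and -0.95 with 5, beside -2.07, -3.14 and -2.13. Csa2G070210 had -2.84 in flesh with 0.1, beside -0.97. The shares of all genes given above hold for a pseudocount of 1 without rescaling. The log2 ratio of the neighbours' sum to Csa6G133710 was 1.66, 1.57 and 0.93 in peel and -0.92, -4.00 and -2.38 in flesh at days 3, 6 and 9. With a pseudocount of 5 it was 1.47 in peel at day 3, and -2.64 and -1.47 in flesh at days 6 and 9; with 0.1 it was -4.75 in flesh at day 6. With Csa2G069200 alone it was 0.22, 0.57 and -0.21 in peel and -2.38 in flesh at day 3. With reads over summed length, a mean weighted by length and not a total, it was -1.19, -1.22 and -2.03 in peel and -3.62, -4.80 and -3.53 in flesh. Without genes of overlapping loci no value could differ, since none of the 5 overlaps another gene. Depth limits the neighbours in flesh at days 6 and 9, where all 5 together had 21 reads each time.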

Other observations

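CsaUNG000040, on an unplaced scaffold, carries the same product name as the 6 genes and was not among them. It had peel levels of 0.402, 0.102 and 0.758 FPKM and flesh levels of 0.368, 0.0858 and 0.115 at days 3, 6 and 9, from 3 to 15 reads, and its mean of 0.305 FPKM was below the filter. The crossing seen in Csa6G133710 was counted over all genes after its values were seen: 26 of 17265 genes (0.151%) were at least 1 log2 unit below flesh in the peel of day 3 and at least 2 units above it in that of day 9.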
